A study of Mus musculus with 6 samples.

Results

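Amino acid transporters of the solute carrier families Slc1, Slc3, Slc6, Slc7, Slc36, Slc38 and Slc43 were followed by RNA sequencing in the mouse line RAW264.7, whose monocyte/macrophage-like cells can become osteoclasts, the cells that resorb bone, when given the cytokine RANKL. Members were all protein-coding rows of the deposited count table whose symbol began with one of these family names, which gave 61 of 41921 rows. The families held 7 (Slc1a), 2 (Slc3a), 19 (Slc6a), 16 (Slc7a), 3 (Slc36a), 11 (Slc38a) and 3 (Slc43a) of them. Per the labels, 3 libraries came from cells under albiflorin, a plant glycoside found in peony roots, and 3 from cells under RANKL. All 6 were wild type and shared an osteoclast differentiation protocol with RANKL at 50 ng/mL, begun 3 days after confluence. The dose and time of albiflorin, and whether those cells also received RANKL, are not stated beyond that protocol, and no untreated cells were analysed here. The symbol rule also took in Slc7a6os, which is named for lying opposite Slc7a6 and is not a transporter.

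Amino acid transporters set how fast a cell takes up the building blocks of protein and the substrates of glutathione, polyamine and nitric oxide synthesis. Heteromeric transporters pair the heavy chain encoded by Slc3a2 (CD98), which carries the complex to the membrane, with a light chain of the Slc7 family that does the transport. In lysosomes, transporters such as SLC38A9 report amino acid supply to the growth kinase mTORC1, and in mice the light chain SLC7A5 is known to link uptake to mTORC1 in osteoclasts. During amino acid shortage the transcription factor ATF4 raises several of these genes, among them Slc7a11 and Slc7a5.

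The libraries held 13708041 to 15200418 counts under albiflorin and 13673284 to 15489482 under RANKL. The macrophage genes Csf1r, Cd68 and Cd14 were abundant, while Itgam had 1 count over all 6 libraries. Of the osteoclast markers, Calcr had 0 counts, Oscar 10, Ctsk 50 and Ocstamp 55 over the 6 libraries together, so these 4 were at or near 0 in both groups, while Acp5 (2207) and Nfatc1 (11559) were detected. The summed osteoclast marker level was 186 to 196 CPM (counts relative to the TMM-scaled library size) under albiflorin and 194 to 208 CPM under RANKL, and 1 of 7 tested genes was higher (Acp5) and 1 lower (Nfatc1), against 12.4% and 11.4% of all tested genes. Nfatc1 made up most of that sum, at 122 ± 5.50 CPM under albiflorin and 143 ± 7.45 CPM under RANKL (SD, n = 3 each). The median log2 fold change of the 7 tested genes was 0.29. Mmp9 (0.48), Atp6v0d2 (0.37), Ocstamp (0.30) and Dcstamp (0.05) were positive and Itgb3 (-0.75) negative, none of them called. DESeq2 called 0 of these 7 higher and 1 lower, and with the mRNA-length trend described further on removed edgeR called 0, with 1 positive and 1 negative at an unadjusted p under 0.05. The summed macrophage marker level was 4134 to 4308 CPM under albiflorin and 3994 to 4292 CPM under RANKL, with 2 of 7 tested genes higher (Spi1, Cd14) and 1 lower (Adgre1). DESeq2 called 3 of these higher and 2 lower, and with that trend removed Cd14 was no longer called (edgeR adjusted p = 0.299). Lymphoid markers summed to under 1 CPM in every library. Fibroblast and osteoblast markers summed to 4.61 to 5.48 CPM under albiflorin and 4.59 to 7.46 CPM under RANKL, and neither of the 2 tested genes (Pdgfrb, Runx2) was called (edgeR and DESeq2; 0 with an unadjusted p under 0.05). The part of these marker levels in the results was not tested.

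Only part of these transporter genes had mRNA counts in RAW264.7 cells. Of the 61 members 26 passed the filter on low counts and were tested, 15 had a few counts (1 to 57 over the 6 libraries), and 20 had none, which allows up to 0.223 CPM (3 counts) in the library with the smallest scaled size. The silent or near-silent members included the glutamate transporter genes Slc1a1, Slc1a2 and Slc1a3, the arginine transporter gene Slc7a2, and the monoamine transporter genes Slc6a2, Slc6a3 and Slc6a4. FPKM, which divides counts by gene length and library size, put Slc38a2 first, at 130.6, 131.5 and 132.2 FPKM under albiflorin and 127.7, 140.8 and 135.9 FPKM under RANKL. Slc38a2 encodes a sodium-coupled carrier of small neutral amino acids, and its groups overlapped. By the mean over all 6 libraries Slc6a12 came next, a betaine and GABA carrier (83.0 ± 4.22 FPKM under albiflorin and 80.1 ± 5.28 FPKM under RANKL, SD, n = 3 each), and the heavy chain gene Slc3a2 (81.9 ± 1.86 FPKM under albiflorin and 71.0 ± 4.46 FPKM under RANKL). The taurine transporter gene Slc6a6 stood at 63.4 ± 4.97 FPKM under albiflorin and 81.7 ± 2.47 FPKM under RANKL, and Slc1a5, a glutamine carrier, at 63.0 ± 3.38 FPKM under albiflorin and 62.2 ± 2.26 FPKM under RANKL. These 5 genes made up 59.1% of the summed FPKM of all members, averaged over the 6 libraries. Slc6a12 and Slc3a2 lay within their spread of each other under albiflorin, as did Slc6a6 and Slc1a5, so the order of these neighbours was not separated there. Under RANKL Slc6a6 had a higher mean than Slc6a12 and Slc3a2. It lay within the spread of Slc6a12 and was not separated from that gene. Its RANKL libraries (78.9 to 83.6 FPKM) all lay above those of Slc3a2 (65.9 to 74.0 FPKM). Per kilobase of mRNA in place of the listed length, Slc38a2 was still first (133 CPM per kilobase). The others of these 5 genes followed in the order Slc3a2 (107), Slc6a6 (99.7), Slc6a12 (94.7) and Slc1a5 (93.7).

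**Figure D1:**
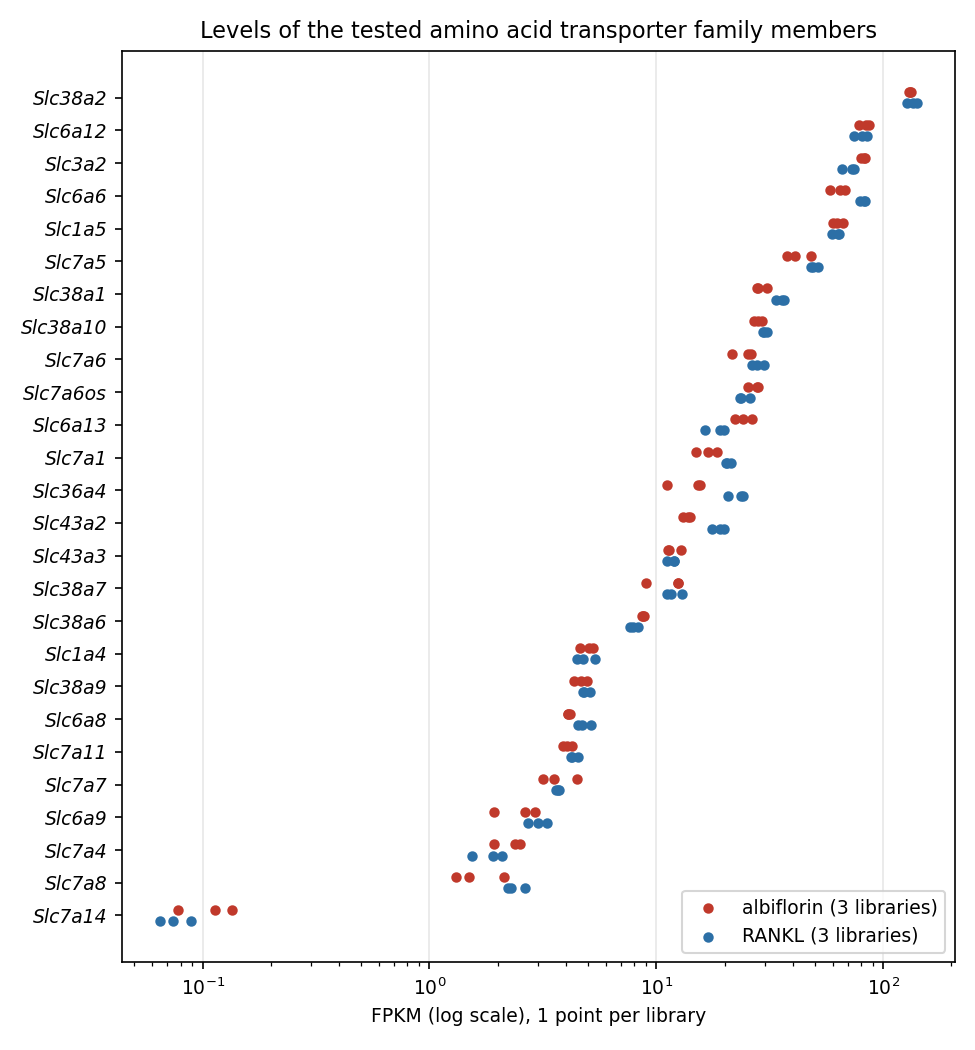
FPKM on a log axis for the 26 tested members, ordered by their mean, with 1 point for each of 3 albiflorin libraries (red) and 3 RANKL libraries (blue). Slc38a2 is highest at 127.7 to 140.8 FPKM, and the groups overlap for some members and not for others.

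In the comparison of albiflorin with RANKL, 2 tested members rose (Slc6a13 and Slc3a2) and 7 fell (Slc43a2, Slc36a4, Slc6a6, Slc38a1, Slc7a1, Slc7a8 and Slc7a5). Over all 13158 tested genes 12.4% were higher and 11.4% lower (23.8% called in either direction; edgeR quasi-likelihood test, Benjamini-Hochberg adjusted p under 0.05). The median log2 fold change of the 26 tested members was -0.07, against 0.01 over all tested genes, and 15 were negative and 11 positive. For 12 of the 26 members (3 higher, 9 lower) no library of one group lay within the range of the other, against 40.1% of all tested genes. All counts of the members together were 0.334%, 0.314% and 0.340% of the library under albiflorin and 0.366%, 0.371% and 0.366% under RANKL. Albiflorin replicate 2 was the lowest of the 6 libraries for 6 of the 7 genes that fell. Without it 5 members were lower and 2 higher, and the median was -0.0282. Without albiflorin replicate 1 or RANKL replicate 2, 1 member was higher, in each case Slc6a13. In bulk RNA a lower level in each cell and fewer cells of one kind cannot be told apart.

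**Figure D2:**
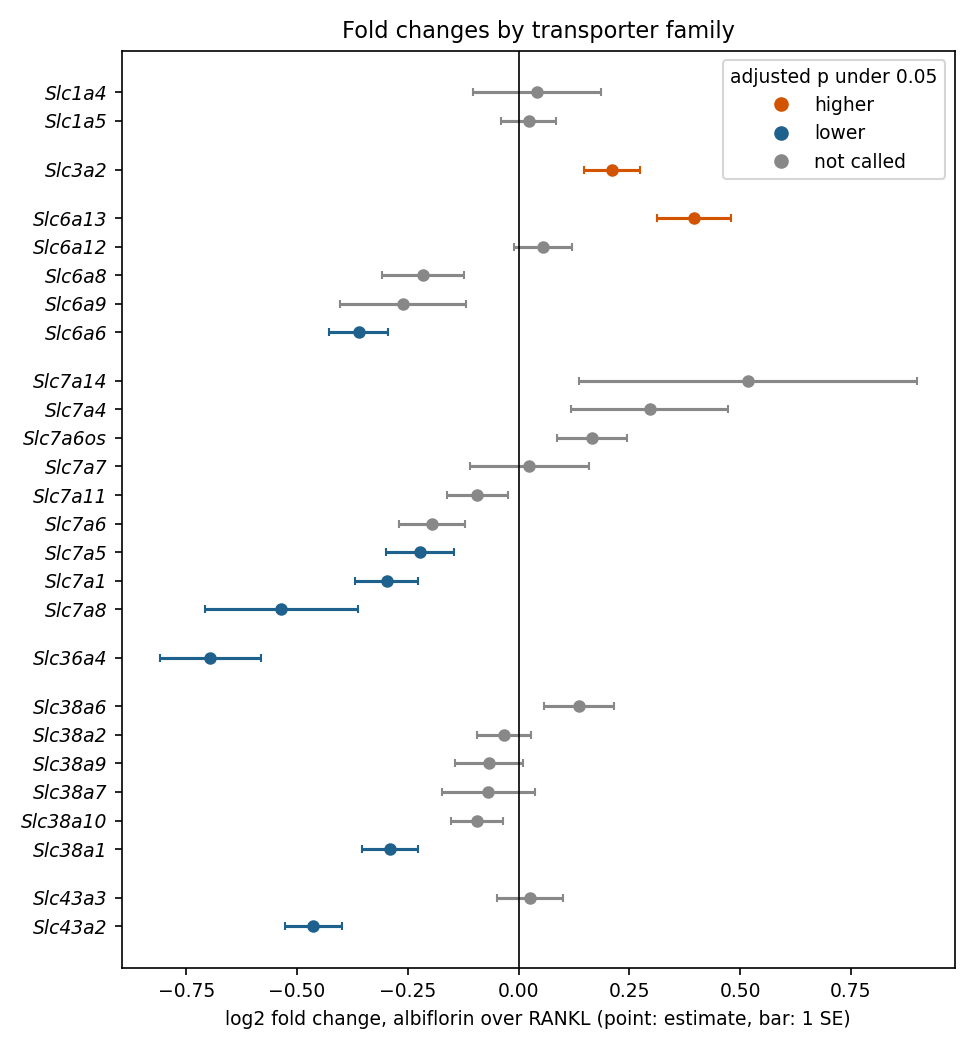
Log2 fold change of albiflorin over RANKL for the 26 tested members, grouped by family (point: estimate, bar: 1 SE). The 2 called higher are Slc3a2 and Slc6a13, and the 7 called lower run from Slc7a5 (-0.22) to Slc36a4 (-0.70).

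In the Slc43 family 1 of the 2 tested members fell. Slc43a2, a sodium-independent carrier of branched-chain amino acids, methionine and phenylalanine (MGP_C57BL6NJ_G0019108, chromosome 11, 78698275 to 78748745), had 139, 132 and 142 CPM under albiflorin and 193, 199.7 and 177 CPM under RANKL. Every albiflorin library lay below every RANKL library. Its log2 fold change of -0.46 ± 0.0638 (SE) had the smallest p of all members (edgeR, adjusted p = 0.000345). Slc43a3, a family relative known to carry purine bases, stood at 53.0 ± 4.02 CPM under albiflorin and 52.1 ± 2.19 CPM under RANKL (SD, n = 3 each; log2 fold change 0.03, edgeR adjusted p = 0.839). Slc43a1 had 1 count in all.

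Of the proton-coupled family, Slc36a4 showed the largest fall of any member. It lies on chromosome 9 (13123609 to 13153579) and had 23.1, 16.9 and 23.5 CPM under albiflorin, against 36.3, 35.7 and 31.2 CPM under RANKL. The groups did not overlap, and albiflorin replicate 2 was the lowest. The log2 fold change was -0.70 ± 0.114 (edgeR, adjusted p = 0.000728). The table lists 1503 bases for this gene, while its principal mRNA in GENCODE M21 has 6539 nt. Its level therefore depends on the length used: 18.4 FPKM on average over the 6 libraries with the listed length, and 4.25 CPM per kilobase of that mRNA. Slc36a2 and Slc36a3 had 3 and 13 counts in all. The remaining relative Slc36a1, a lysosomal and plasma-membrane carrier of small amino acids, has no symbol in the table and lies outside the rule. It was looked up afterwards by its protein match and stood at 40.7 ± 3.57 CPM under albiflorin and 50.4 ± 5.21 CPM under RANKL (SD, n = 3 each), a log2 fold change of -0.31 ± 0.0886 that passed the edgeR test (adjusted p = 0.0187). Slc36a1 no longer passed in edgeR without albiflorin replicate 1 (adjusted p = 0.071) or 2 (0.0659) or without RANKL replicate 3 (0.104). The same held with the trend on mRNA length described further on removed (0.224), or that on listed gene length (0.0597). It did not pass with limma on log2(FPKM + 1) (adjusted p = 0.0767) or log2(FPKM + 0.1) (0.0763) either.

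Of the carriers of taurine, betaine and GABA, Slc6a6 fell, Slc6a13 rose and Slc6a12 was not called. Slc6a6, which takes up the osmolyte taurine (chromosome 6, 95711526 to 95792759), had 548, 496 and 577 CPM under albiflorin and 702, 709 and 671 CPM under RANKL. These groups did not overlap either, and the log2 fold change was -0.36 ± 0.0668 (edgeR, adjusted p = 0.00158). Slc6a13, a GABA transporter that also carries taurine (chromosome 6, 127417230 to 127454795), had 70.6, 77.2 and 64.9 CPM under albiflorin and 58.2, 47.7 and 55.8 CPM under RANKL. All albiflorin libraries were above all RANKL libraries, with a log2 fold change of 0.40 ± 0.0839 (edgeR, adjusted p = 0.00347), the largest rise among the members called. Its neighbour Slc6a12 starts 5342 bases further on the same strand and had 257, 267 and 241 CPM under albiflorin and 246, 229 and 262 CPM under RANKL. The groups of Slc6a12 overlapped (log2 fold change 0.05 ± 0.0661, edgeR adjusted p = 0.597). Within each library the FPKM ratio of Slc6a13 to Slc6a12 was 0.288, 0.304 and 0.284 under albiflorin and 0.248, 0.219 and 0.224 under RANKL, again without overlap. The exact two-sided permutation test gave p = 0.1, the smallest that 3 against 3 libraries allow, and 0.12 after adjustment over the 6 gene pairs compared. The values of this pair had been seen when it was chosen. The creatine transporter gene Slc6a8 (-0.22 ± 0.0917, edgeR adjusted p = 0.101) and the glycine transporter gene Slc6a9 (-0.26 ± 0.142, edgeR adjusted p = 0.2) were not called.

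Slc43a2, Slc36a4, Slc6a6 and Slc6a13 kept their call and direction under all 15 alternative settings that were run, each library left out in turn among them. The highest adjusted p in any setting was 0.0246 for Slc43a2, 0.0291 for Slc36a4, 0.0281 for Slc6a6 and 0.0406 for Slc6a13.

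**Figure D3:**
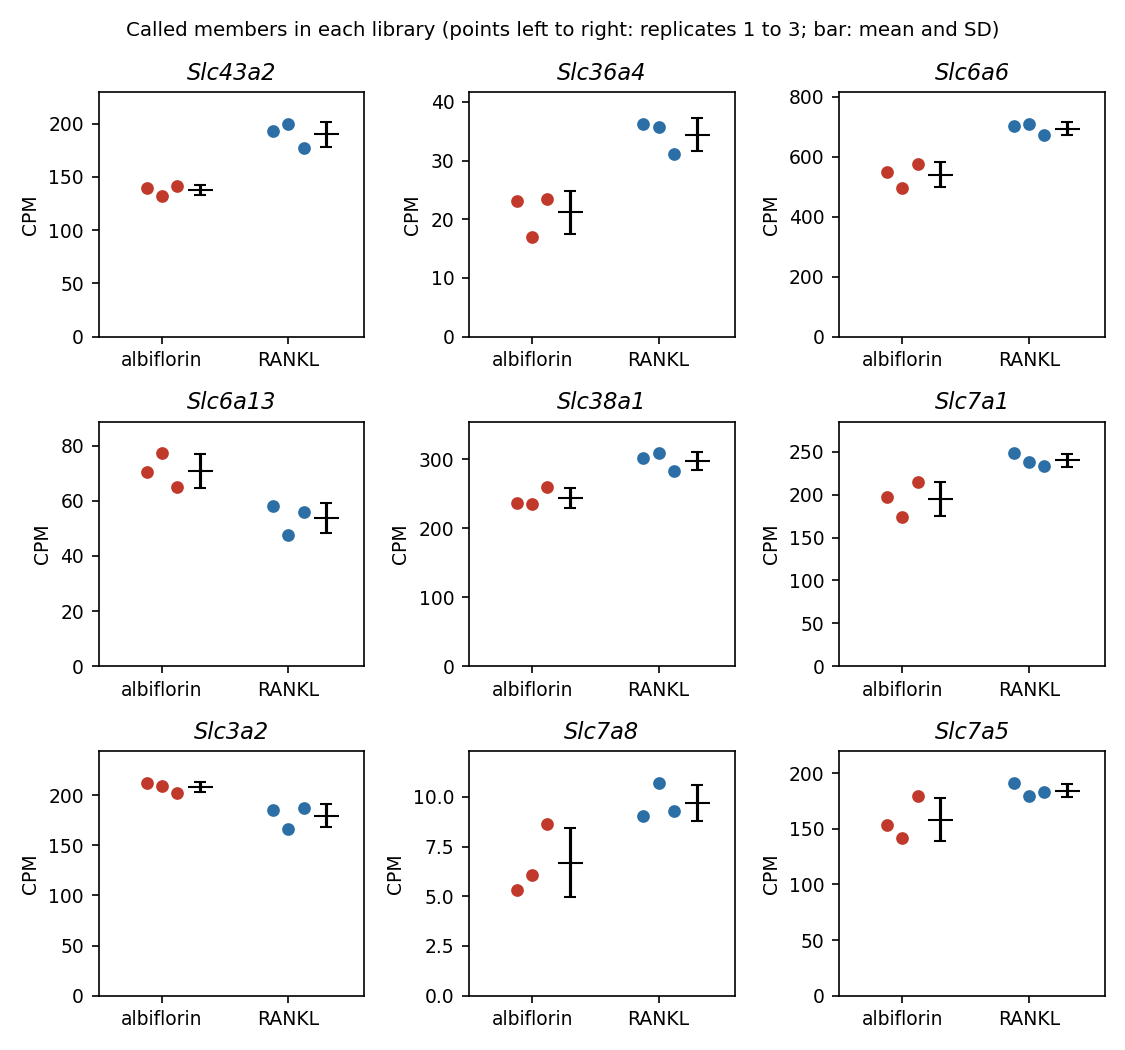
CPM of the 9 called members in each library, from an axis that starts at 0, albiflorin (red) left of RANKL (blue), with mean and SD beside the points. Libraries of the groups do not overlap for Slc43a2, Slc36a4, Slc6a6, Slc6a13, Slc38a1, Slc7a1, Slc3a2 and Slc7a8, and they overlap for Slc7a5.

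In the heteromeric system the heavy chain gene rose. Of the 5 partner light chain genes examined, Slc7a5 and Slc7a8 fell and the others were not called. The calls of Slc3a2, Slc7a5 and Slc7a8 ended with the mRNA-length trend removed, as given below. Slc3a2 (chromosome 19, 6092958 to 6111947) had 212, 209 and 202 CPM under albiflorin and 185, 167 and 188 CPM under RANKL. The groups did not overlap, and the log2 fold change was 0.21 ± 0.0626 (edgeR, adjusted p = 0.0227). Slc7a5 (LAT1, a carrier of leucine and other large neutral amino acids, chromosome 8, 129581885 to 129610708) had 153, 142 and 179 CPM under albiflorin and 191, 179 and 183 CPM under RANKL. In CPM albiflorin replicate 3 reached the lowest RANKL library, while in FPKM it lay just below that library (48.14 against 48.18). The log2 fold change was -0.22 ± 0.0762 (edgeR, adjusted p = 0.0433). Slc7a8 (LAT2, a relative of LAT1) was far less abundant (2.02 FPKM on average over the 6 libraries, against 45.9 FPKM for Slc7a5), at 5.34, 6.09 and 8.65 CPM under albiflorin and 9.03, 10.7 and 9.31 CPM under RANKL. Its groups did not overlap (log2 fold change -0.54 ± 0.173, edgeR adjusted p = 0.0335). Slc7a6, a light chain that exchanges cationic for neutral amino acids, missed the threshold (log2 fold change -0.20 ± 0.0752, edgeR adjusted p = 0.0711), though it was called lower without albiflorin replicate 3 (adjusted p = 0.0325) and with no filter (0.0273). Its close relative Slc7a7 did not pass (log2 fold change 0.02 ± 0.134, edgeR adjusted p = 0.922), and that row overlaps Oxa1l on the other strand, with 8167 counts in all.

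These calls were less stable. The edgeR call of Slc3a2 ended without albiflorin replicate 1 (adjusted p = 0.115) or RANKL replicate 2 (0.0984). That of Slc7a8 ended without albiflorin replicate 1 (0.149) or 2 (0.0935) or without RANKL replicate 2 (0.136) or 3 (0.0544). That of Slc7a5 held in only 1 of the 6 fits that left out a library, the one without albiflorin replicate 3, and stood between 0.0782 and 0.151 in the other 5.

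Light chain levels were also set against the heavy chain within each library. The FPKM ratio of Slc7a5 to Slc3a2 was 0.491, 0.460 and 0.603 under albiflorin and 0.704, 0.732 and 0.663 under RANKL. Summed over Slc7a5, Slc7a6, Slc7a7, Slc7a8 and Slc7a11, light chain FPKM was 0.893, 0.834 and 1.07 times that of Slc3a2 under albiflorin and 1.22, 1.35 and 1.16 times under RANKL. The groups did not overlap for the sum, nor for the single ratios of Slc7a5, Slc7a6, Slc7a8 and Slc7a11, and they overlapped for Slc7a7. Each ratio that did not overlap had an exact two-sided permutation p = 0.1 (0.12 adjusted over 6 pairs), the floor for 3 against 3. All light chain ratios share the denominator Slc3a2, itself higher without overlap, so they are not separate observations. The level of Slc7a11 by itself, not divided by that of Slc3a2, overlapped between the groups. The size of these FPKM ratios rests on the listed gene lengths. Per kilobase of mRNA, averaged over the 6 libraries, Slc3a2 stood at 107 CPM. Slc7a5 stood at 48.7, Slc7a6 at 26.2, Slc7a11 at 6.36, Slc7a7 at 5.38 and Slc7a8 at 2.00, together below Slc3a2. The Slc3a2 mRNA is 1819 nt long and those of these light chains are 2278 to 9223 nt. Fold changes followed mRNA length across all genes, as given below. With that trend removed, the log2 fold change of Slc7a11 minus that of Slc3a2 changed sign to 0.11, against -0.30 for their FPKM ratio. The same difference was -0.25 for Slc7a5 (-0.44 for the FPKM ratio), -0.21 for Slc7a6 (-0.41) and -0.53 for Slc7a8 (-0.77), none of which was tested.

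**Figure D4:**
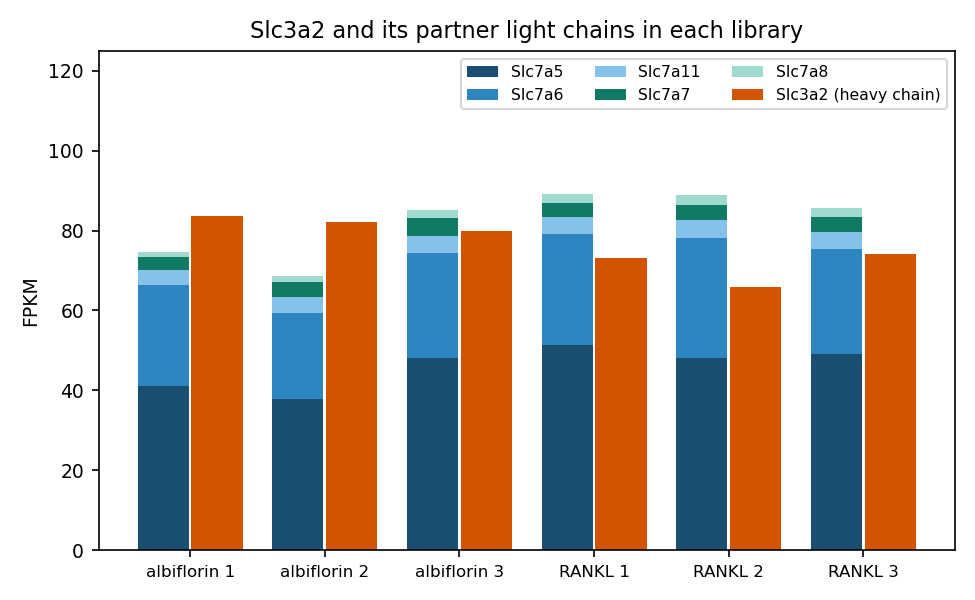
FPKM of the heavy chain gene Slc3a2 (orange bar) beside the stacked FPKM of 5 partner light chain genes in each library, albiflorin libraries left of RANKL libraries. With the listed gene lengths, the stack is 0.834 to 1.07 times the heavy chain under albiflorin and 1.16 to 1.35 times under RANKL.

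Slc7a1 (CAT1), the main carrier of arginine and lysine in many cells, lies on chromosome 5 (159726705 to 159811195). It had 197, 175 and 214 CPM under albiflorin and 248, 238 and 234 CPM under RANKL. The groups did not overlap (log2 fold change -0.30 ± 0.0712, edgeR adjusted p = 0.00713). Slc7a2, the arginine transporter of activated macrophages, had 0 counts in all libraries. Slc7a4 and Slc7a14 are relatives of Slc7a1 by sequence. Slc7a4 (log2 fold change 0.30 ± 0.177, edgeR adjusted p = 0.247) and Slc7a14 (0.52 ± 0.381, adjusted p = 0.353) were low and not called, and Slc7a3 and Slc7a13 were under the filter with 27 and 57 counts in all.

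The sodium-coupled neutral carriers of the Slc38 family held 1 called member. Slc38a1, a glutamine carrier (chromosome 15, 101793165 to 101866867), had 237, 234 and 260.1 CPM under albiflorin and 302, 309 and 283 CPM under RANKL. No albiflorin library reached a RANKL library, and the log2 fold change was -0.29 ± 0.0635 (edgeR, adjusted p = 0.00425). Slc38a2 lies 52724 bases away on the same strand and had 609, 614 and 615 CPM under albiflorin and 593, 654 and 632 CPM under RANKL, which overlapped (log2 fold change -0.03 ± 0.0609, edgeR adjusted p = 0.754). Slc38a9, the lysosomal arginine sensor, had 41.7, 39.1 and 44.2 CPM under albiflorin and 42.5, 45.4 and 43.04 CPM under RANKL. Its groups overlapped as well (log2 fold change -0.07 ± 0.0764, edgeR adjusted p = 0.573). Slc38a6 (0.14 ± 0.0792), Slc38a7 (-0.07 ± 0.106) and Slc38a10 (-0.09 ± 0.0587) were not called. In the Slc1 family Slc1a5 had 276, 248 and 259 CPM under albiflorin and 263, 246 and 261 CPM under RANKL, with overlap (log2 fold change 0.02 ± 0.062, edgeR adjusted p = 0.835). Its relative Slc1a4 was not called either (0.04 ± 0.144, edgeR adjusted p = 0.87).

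The direction of the members went with the length of their mRNA, as it did across the whole table. The 7 that fell had a median mRNA length of 6539 nt, against 3333 nt for the 17 not called. As a description across genes, which share the same 6 libraries, Spearman's rho between mRNA length and log2 fold change was -0.54 over the 26 members and -0.62 over 10553 tested protein-coding genes. Of 8 members with an mRNA of 6000 nt or more 5 were lower and none higher, in a class where 50.1% of all genes were lower, 0.796% higher and the median log2 fold change was -0.24. Of the 3 members from 4000 to under 6000 nt 1 was lower and none higher (22.5% and 2.07% of all genes in that class). Of the 13 from 2000 to under 4000 nt 1 was lower and 1 higher (4.96% and 7.35%). Of the 2 under 2000 nt 1 was higher and none lower (35.9% and 0.74%). With so few members in each class, these shares lay near those of all genes. In albiflorin replicate 2 the median gene of the longest class stood at -0.32 on the log2 scale relative to the RANKL mean, against -0.22 and -0.16 in albiflorin replicates 1 and 3. The part of read coverage or RNA quality in this trend was not tested.

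**Figure D5:**
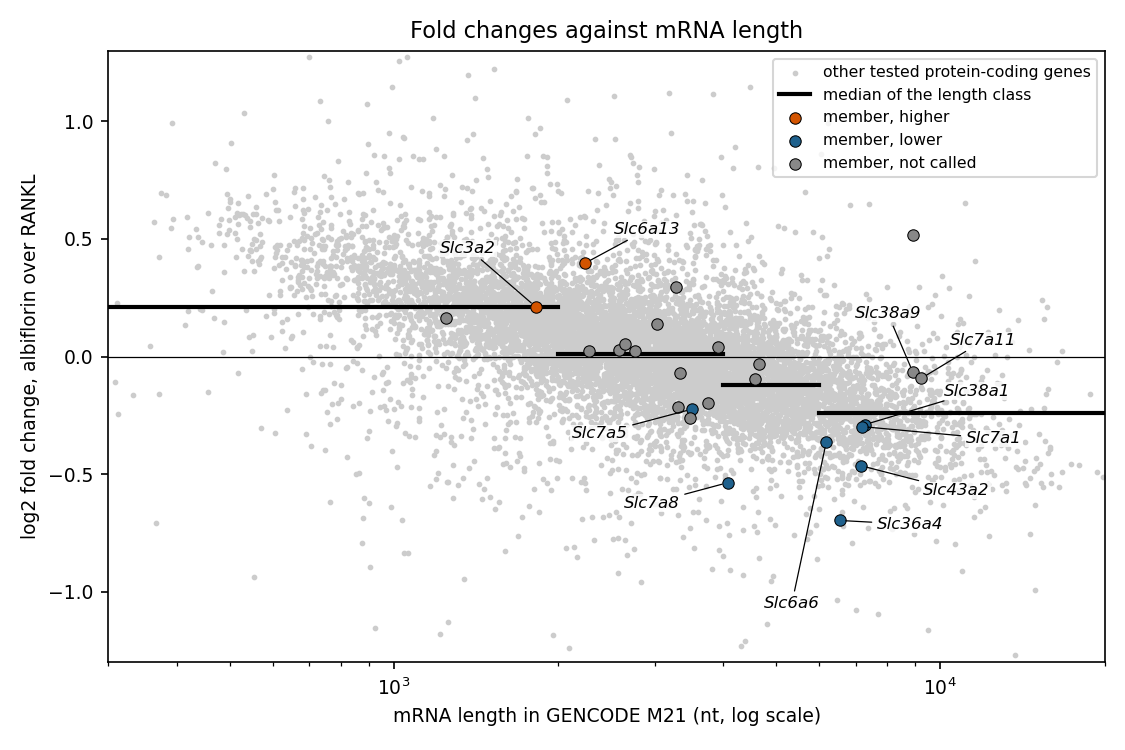
Log2 fold change of albiflorin over RANKL against mRNA length (log axis) for tested protein-coding genes (grey, with 28 outside the axes) and the 26 tested members. Black lines are the medians of 4 length classes, from 0.21 under 2000 nt to -0.24 at 6000 nt or more. Slc43a2 and Slc36a4 lie below the line of their class, and Slc7a11 and Slc38a9 above it.

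With this mRNA-length trend removed from each library, 4 members were called. Slc43a2 (log2 fold change -0.24, edgeR adjusted p = 0.0067), Slc36a4 (-0.50, adjusted p = 0.00568) and Slc6a6 (-0.18, adjusted p = 0.027) were lower and Slc6a13 (0.32, adjusted p = 0.012) was higher. Over all tested genes 4.89% were then higher and 5.49% lower. The calls of Slc38a1 (-0.07, edgeR adjusted p = 0.419), Slc7a1 (-0.08, adjusted p = 0.382), Slc3a2 (0.07, adjusted p = 0.411), Slc7a8 (-0.46, adjusted p = 0.0916) and Slc7a5 (-0.18, adjusted p = 0.089) ended. With the trend on the listed gene length removed instead, Slc7a8 (adjusted p = 0.0428) and Slc7a5 (0.0302) were still called, and Slc38a1 (0.0709), Slc7a1 (0.233) and Slc3a2 (0.195) were not. Slc36a4, with 1503 bases listed against 6539 nt of mRNA, then stood at -0.92 (edgeR adjusted p = 0.000327). Slc43a2 (-0.29), Slc6a6 (-0.22) and Slc6a13 (0.33) were also called. Slc7a11 and Slc38a9, whose mRNAs of 9223 and 8910 nt are the longest of the tested members, changed sign to 0.18 and 0.20 with the mRNA-length trend removed, and neither was called (edgeR adjusted p = 0.0796 and 0.067).

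Slc7a11 (xCT), the light chain that imports cystine for glutathione synthesis, had 54.3, 56.5 and 59.7 CPM under albiflorin and 59.01, 63.1 and 59.6 CPM under RANKL. The groups overlapped by a narrow margin (log2 fold change -0.09 ± 0.0683, edgeR adjusted p = 0.353). It is shown with Slc1a4 and Slc7a7 because their promoters hold the core of the C/EBP-ATF response element through which ATF4 acts, searched as TGATGNAA on both strands. RefSeq windows of GRCm38.p6, 250 bases before to 50 after each start, were found for 43 of the 61 members, and 3 of these 43 (6.98%) held the motif, against 4.51% of 27025 genes with a window. In the stretches below the capitals mark the motif, and the last base of the first is the base before the transcription start. They are chr3:50443614-50443763, chr11:20332690-20332749 and chr14:54417918-54417977, all on the minus strand and written 5′ to 3′.
Slc7a11: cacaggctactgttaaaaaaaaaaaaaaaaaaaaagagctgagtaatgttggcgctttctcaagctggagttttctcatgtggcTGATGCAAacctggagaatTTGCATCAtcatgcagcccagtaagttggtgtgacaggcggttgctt
Slc1a4: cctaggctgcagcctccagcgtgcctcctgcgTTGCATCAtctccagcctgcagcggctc
Slc7a7: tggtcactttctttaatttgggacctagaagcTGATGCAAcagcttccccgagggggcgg
In Slc7a11 a match on each strand starts 66 and 47 bases before the transcription start. In Slc1a4 the match lies on the opposite strand and begins 4 bases before the start, and in Slc7a7 it begins 1 base before the start. The Slc7a7 window shown is 1 of 5 for this gene and holds another match, not printed, 141 bases before that start. In another of these windows the printed match lies 243 bases before a different annotated start. None of these 3 genes was called. A match describes these letters and shows no binding. No window was found for Slc1a5, Slc38a1, Slc43a3, Slc6a6, Slc6a8, Slc7a4 and Slc7a5 among the tested members.

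Other genes of amino acid supply were read from lists (background 12.4% higher and 11.4% lower). Of 18 tested genes of the ATF4 axis 7 rose and 1 fell, with a median log2 fold change of 0.17, against 0.01 over all tested genes. Atf4 itself had 287, 281 and 279 CPM under albiflorin and 224, 221 and 224 CPM under RANKL (log2 fold change 0.34 ± 0.0564, edgeR adjusted p = 0.000794). The serine synthesis gene Psph (0.59 ± 0.0869) and the stress gene Nupr1 (0.56 ± 0.0818) rose, and Eif2ak4, the kinase that senses uncharged tRNA, fell (-0.26 ± 0.0665). With the mRNA-length trend removed 4 of this list were higher, Atf4, Psph, Asns and Cebpg, and 0 lower (edgeR; 2 negative with an unadjusted p under 0.05). Of 27 tested genes of lysosomal amino acid sensing 5 rose and 5 fell. The Ragulator gene Lamtor4 (0.69 ± 0.101) rose, and the mTORC1 subunit gene Rptor (-0.50 ± 0.0704) and the folliculin partner gene Fnip2 (-0.38 ± 0.0645) fell. These 3 were the ones called with the trend removed.

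Glutathione genes held 2 of 8 higher (Gpx4 and Gpx1) and 0 lower by edgeR and by DESeq2. With the trend removed 0 were called by edgeR, and 1 had an unadjusted p under 0.05. Among arginine and polyamine genes 2 of 10 rose, the inducible nitric oxide synthase gene Nos2 (0.32 ± 0.106) and the spermine synthase gene Sms (0.19 ± 0.0609), and Azin1, an antizyme inhibitor gene, fell (-0.20 ± 0.0611). With the trend removed Nos2 and Sms were still higher, Azin1 was no longer called (edgeR adjusted p = 0.357), and the antizyme gene Oaz1 was lower (-0.32, edgeR adjusted p = 0.0165). Of 6 tested genes on a list of amino acid and peptide carriers outside the 7 families, none was called by edgeR or DESeq2. That list also held Slc29a3, a nucleoside carrier. The median log2 fold change of the 6 was -0.17, and 2 had an unadjusted p under 0.05, both negative (Slc15a3 and Slc29a3).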

How the data were processed

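Reads per gene for the 6 libraries were taken from the deposited raw counts. The FPKM values made by the authors could be rebuilt from these counts, the gene length in the table and a single total for each library. Per the submitters' processing notes, the software included HISAT2 2.2.1, featureCounts 2.0.6-p3, fastp, CASAVA 1.8 and DESeq2 1.42.0, with no roles given. Neither the genome build nor the strand setting of counting is stated in these sources. Coordinates are those of the table, whose identifiers carry a C57BL/6NJ prefix, and RAW264.7 comes from another strain. Gene length, listed in the deposited table, is an annotation in bases and is classed as other. The zero floor covers counting error only.

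Counts were tested with edgeR 4.0.16 (R 4.3.3) after filterByExpr and TMM scaling, with group as the only term of its quasi-likelihood F-test and Benjamini-Hochberg adjustment over 13158 genes. Standard errors were the size of the log2 fold change over the root of F. The fit was first tested on simulated data. Labels do not say that replicates were separate cultures, so p-values may measure technical spread only. Alternatives were RLE scaling, DESeq2 1.42.0, limma 3.58.1 on log2(FPKM + 1) and log2(FPKM + 0.1) for genes with a mean FPKM over 0.5, 2 other filters, each library left out, a replicate block, and removal of lowess trends (span 0.3) on listed gene length and, added afterwards, on GENCODE M21 mRNA length. Permutation tests used scipy 1.17.1. Members and lists were chosen with earlier results of these data known. Values per library are given for called members, 8 genes named whatever their result and the 5 members with the highest mean FPKM. By rule at most 3 called genes were taken from each list, in order of p. Other genes, Eif2ak4 among them, were named after their values were seen. Some items are not reported here.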

Additional observations from a re-analysis of the deposited data

How the results depend on the processing

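Over all genes 1631 were higher and 1496 lower. These counts were 996 and 737 with limma on log2(FPKM + 1), 988 and 737 on log2(FPKM + 0.1), and 643 and 723 with the mRNA-length trend removed, an alternative added afterwards. Removing the gene-length trend left 945 higher and 1048 lower, so that lower calls outnumbered higher ones, as they did for the mRNA-length trend. Leaving out 1 library gave 984 to 1753 higher and 914 to 1644 lower. Among the members 2 higher became 1 on both log2 FPKM scales, with either length trend removed and without albiflorin replicate 1 or RANKL replicate 2 (range 1 to 2). The 7 lower became 4 on both log2 FPKM scales and 3 with the mRNA-length trend removed, and were 5 to 8 with a library left out. The members' median of -0.07 was -0.0275 with the mRNA-length trend removed and -0.12 to -0.0282 with a library left out. On log2(FPKM + 1) Slc7a1 (limma adjusted p = 0.0504), Slc3a2 (0.0566), Slc7a8 (0.105) and Slc7a5 (0.116) were not called. Among the 14 members with values per library, sign changes were seen in 5, none of them called: Slc7a11 (0.18 after removal of the mRNA-length trend, 0.13 after that of the gene-length trend), Slc38a9 (0.20 and 0.0871), Slc38a2 (0.081 with the mRNA-length trend removed, and -0.0699 to 0.00077 with a library left out, the highest without RANKL replicate 2), Slc6a12 (-0.0042 with the gene-length trend removed) and Slc1a5 (-0.00053 with the mRNA-length trend removed, -0.0294 without albiflorin replicate 1 and -0.0071 without RANKL replicate 2, in a range up to 0.0523). Of the 12 other tested members, 6 that were not called changed sign in at least 1 setting (Slc1a4, Slc38a10, Slc38a7, Slc43a3, Slc7a6os and Slc7a7). For the 14, 173 of 210 recomputed values kept direction and call. The cause of these changes was not tested. With the replicate number as a block 1358 genes were higher and 1214 lower, and 2 and 7 members, with no call of a named member changed; same-numbered libraries did not deviate together (correlations 0.02, -0.04 and -0.07), so the numbers are not taken as pairs. Members under about 10 CPM, such as Slc7a8, Slc7a4 and Slc1a4, have the widest errors.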
